A study of Rattus norvegicus with 145 samples.

Results

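Lepr, Inmt, Alox15, Ky, Rgs16, Pcdh7, Dab1, Gas6, Nos1ap and Atp13a5 are 10 liver genes of 17337 listed, and each was among the most strongly repressed genes of at least 1 of 5 count tables from rats gavaged with acetamide, a small amide that occurs in food. The genes were taken by symbol, all 10 were found in every table, and they were selected on their measured fold change at the highest dose. The fall in the table where a gene fell most is therefore a description, and tests are given only for the other tables, for sex and for the variation among rats of the same dose. Experiment A used male Hsd:WI rats of 9 to 10 weeks given 0, 30, 100, 300 or 1000 mkd (mg/kg/day) for 7 days. Experiment B used male and female Crl:WI rats of 8 to 10 weeks given 0, 300, 500, 750, 1000 or 1500 mkd for 7 or 28 days. Every rat, controls included, was gavaged daily, the vehicle being water, and RNA of the left liver lobe was taken on day 8 or day 29. Each of the 29 groups held 5 rats, 25 rats in experiment A and 120 in experiment B. The control males of day 29 carry the exposure label of the other experiment, but their titles, strain and duration place them in experiment B.

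The 10 genes belong to different systems. Lepr encodes the receptor of the hormone leptin, which signals through the kinase Jak2 and the transcription factor Stat3, and Gas6 is a vitamin K dependent ligand of the receptor kinases Tyro3, Axl and Mertk. Inmt transfers methyl groups from S-adenosylmethionine to indole amines such as tryptamine, Alox15 is a lipoxygenase that oxygenates polyunsaturated fatty acids and is abundant in maturing red cells, and Ky is a transglutaminase-like peptidase known for its role in skeletal muscle. Rgs16 shortens signalling by G proteins and is known in liver as a gene that follows fasting and the time of day. Dab1 is the adaptor protein of the reelin receptors Vldlr and Lrp8, and Nos1ap is an adaptor of neuronal nitric oxide synthase. Pcdh7 is a protocadherin, a cell adhesion protein, and Atp13a5 is a P5-type ATPase, a pump of membranes inside the cell. In rat liver many genes differ between the sexes, following the different patterns of growth hormone release in males and females.

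Each rat had between 15449716 and 39986531 reads on genes (median 28262376). Levels are given in CPM, the count scaled to the size of the library, after TMM scaling of all rats of both experiments together, with the SD over 5 rats, and compare rats for the same gene only. A fold change comes from a fit of each table by itself, with its SE on the log2 scale, and a call needed a fold change of 1.5 or more together with an adjusted p, over all genes of the table, no greater than 0.05. Of 10 hepatocyte markers none was at 0 in the control or highest dose groups, and they summed to 93510 to 395700 CPM per rat. In bulk tissue, fewer cells of a type and less RNA per cell cannot be told apart. Nothing in the labels says more of the replicates than that they are different rats of a group.

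In the tables other than the one that chose it, 4 of the 10 genes were called lower than the controls at the highest dose, Lepr, Dab1, Gas6 and Atp13a5. Of 40 combinations of gene and other table, 36 had enough reads to be tested, 29 of these had a log2 fold change below 0, 6 were called lower and 0 were called higher by edgeR. Over all genes of the 5 tables together 48.6% lay below 0. At an unadjusted p under 0.05, 14 were lower and 1 was higher, where 11.9% of all genes were lower and 13.9% higher, and DESeq2 called 9, all of them lower, where it called 3.33% of all genes lower and 6.22% higher. In experiment A 2 of 6 members chosen elsewhere were called lower, where 7.45% of all genes were called lower and 14.0% higher. In males day 29 it was 1 of 7, against 1.76% lower and 3.16% higher among all genes, and in females day 29 it was 3 of 8, against 3.54% lower and 9.55% higher. None of 8 was called in males day 8 and none of 7 in females day 8, where 0.0354% and 0.183% of all genes were called lower and 0.142% and 0.522% higher. The called members were Lepr, Dab1 and Gas6 in females day 29, Dab1 and Atp13a5 in experiment A, and Atp13a5 in males day 29. The 4 combinations without a test were Ky in the 3 male tables and Inmt in females day 8, where counts were too low.

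**Figure D1:**
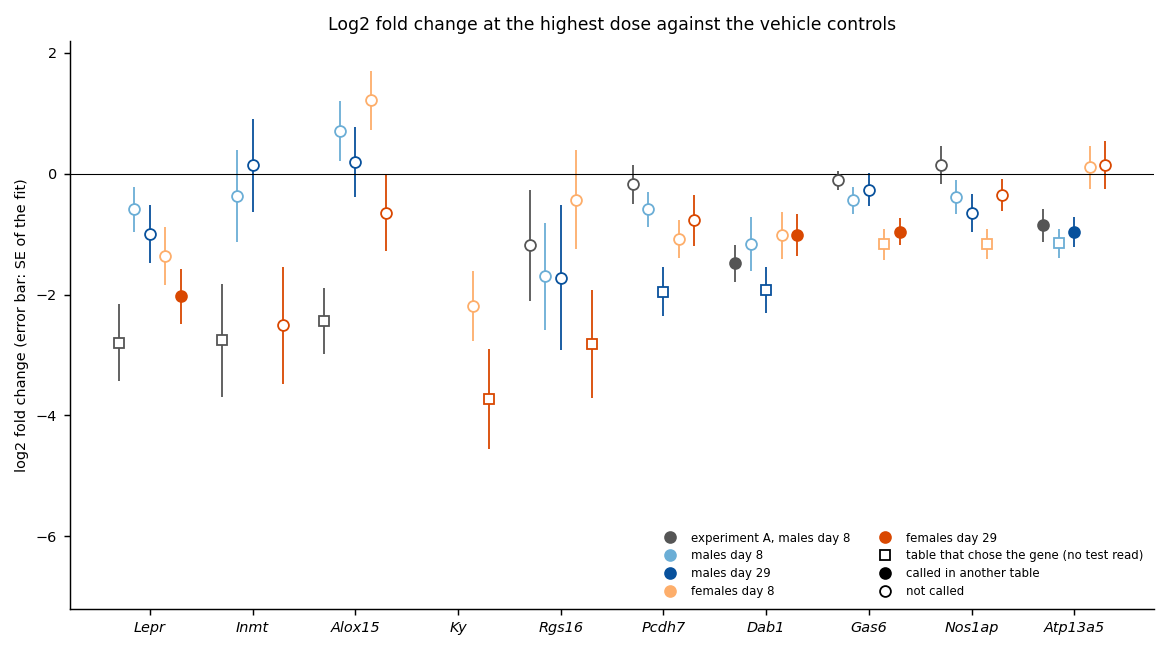
Log2 fold change of each gene (x axis) at the highest dose against the vehicle controls of the same table (y axis), 1000 mkd in experiment A and 1500 mkd in the others, with the SE of the fit as error bar and 5 rats per group. Squares mark the table that chose the gene, filled circles the 6 calls in other tables and open circles values not called; 29 of the 36 circles lie below 0.

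Below the highest dose no member was called. Over the 138 tests of a lower dose outside the choosing table, edgeR called 0, where 0.162% of all genes were called lower and 0.194% higher at these doses together. At an unadjusted p under 0.05, 23 were lower and 1 was higher, against 4.56% and 4.85% of all genes. A fit of the log2 level on dose, which uses every group of a table, called 11 of 36 slopes falling and 0 rising, in 8 members, where 11.7% of all genes were called rising over the 5 tables. At an unadjusted p under 0.05 there were 20 falling and 0 rising slopes, against 15.8% and 18.1% of all genes. Falling slopes were called for 2 of 6 members in experiment A (22.4% of all genes), 0 of 8 in males day 8 (0.540%), 3 of 7 in males day 29 (10.6%), 2 of 7 in females day 8 (1.69%) and 4 of 8 in females day 29 (11.9%). Alox15 and Nos1ap had no called slope outside the table that chose them. Leaving out 1 rat of every group, by replicate number, left 4 to 10 of the slopes called.

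**Figure D2:**
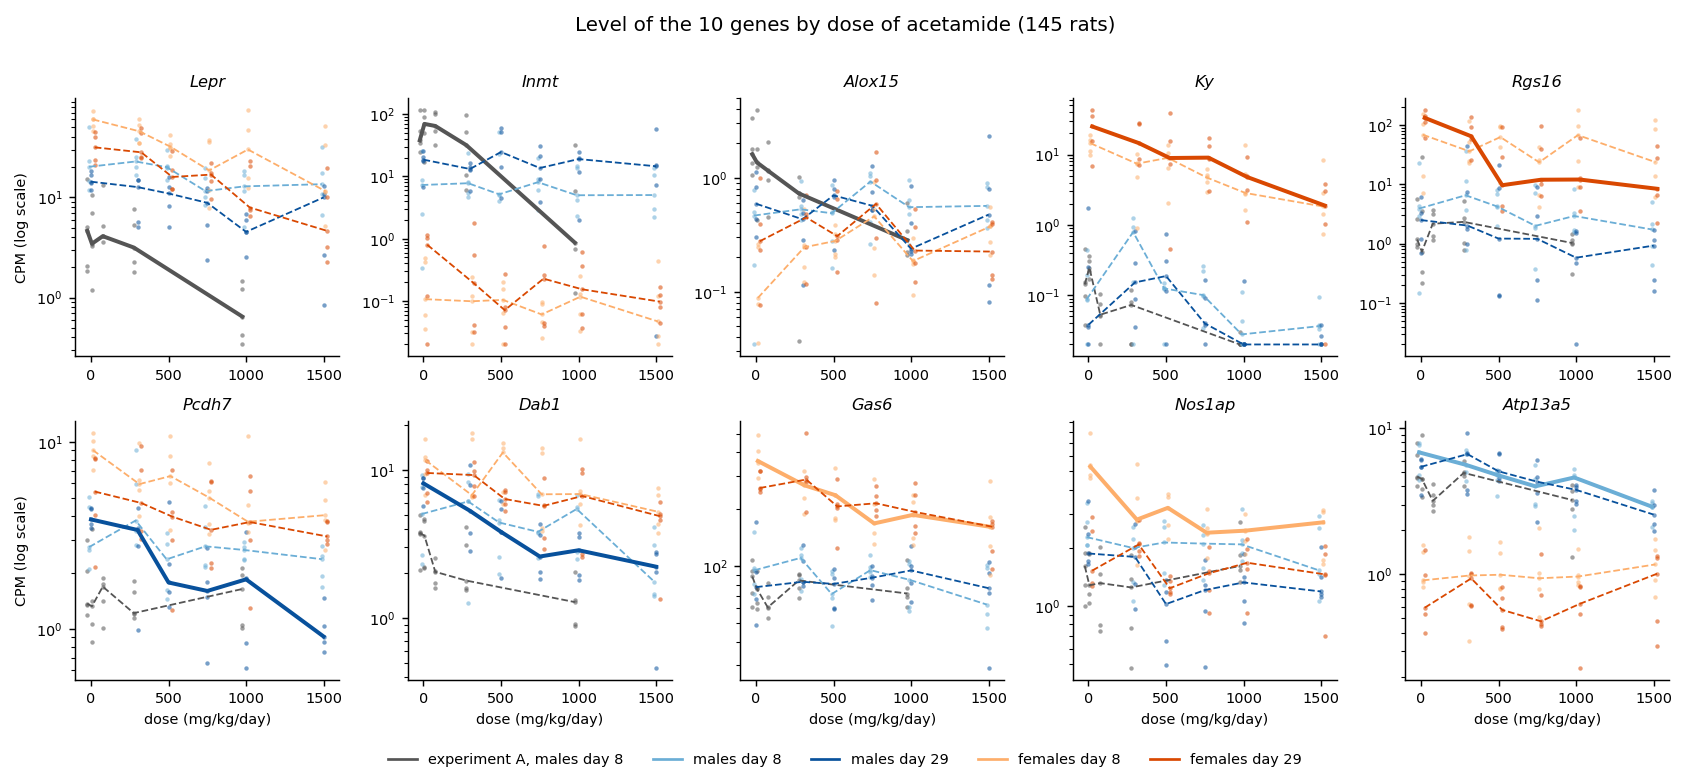
CPM on a log scale (y axis) against the dose in mg/kg/day (x axis) for each of the 10 genes in the 5 tables, each point being 1 rat and each line joining group medians, with values below 0.02 CPM drawn at 0.02. The thick solid line is the table that chose the gene, the dashed lines are the other tables, and the slopes called outside the choosing table number 11.

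Lepr, the receptor, was chosen in experiment A. There the controls had 4.64, 2.06, 5.03, 1.84 and 15.1 CPM, and the rats at 1000 mkd had 1.22, 0.646, 1.46, 0.425 and 0.341 CPM. All 5 treated rats lay below the lowest control, and 1 control lay far above the others. The fitted change was 6.94-fold lower (log2 -2.80, SE 0.64).

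In females day 29, which did not choose it, Lepr fell 4.09-fold at 1500 mkd (log2 -2.03, SE 0.45, adjusted p = 0.00274). The controls there had 39.9, 21.2, 23.5, 44.4 and 31.6 CPM and the treated rats 3.19, 4.62, 2.28, 9.98 and 19.4 CPM, so that the groups did not overlap. The slope was -1.47 log2 units per 1000 mkd (SE 0.26, adjusted p = 0.000131), and group medians left the range of the controls from 500 mkd on in the plot of levels by dose. In males day 29 the change at 1500 mkd, log2 -0.996 (SE 0.48), was not called, while the slope of -0.75 (SE 0.27) was, with an adjusted p of 0.0437. That slope was not called without replicate 1, 2 or 3 of every group (adjusted p = 0.169, 0.0535 and 0.135). In females day 8 Lepr was at 58.1 ± 10.4 CPM in controls and 22.5 ± 19.4 CPM at 1500 mkd, log2 -1.36 (SE 0.48), and was not called, with an adjusted p of 0.151. Replicate 1 of that treated group had 51.6 CPM, within the control range of 45.9 to 73.3 CPM, and without it the change was log2 -1.92 with an adjusted p of 0.0257. In males day 8 the change was log2 -0.59 (SE 0.37), not called.

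Lepr controls averaged 5.74 ± 5.44 CPM in experiment A, where they chose the gene, and 24.1 ± 15.6 CPM in males day 8 of experiment B. The ranges overlapped, the difference was not tested, and strain and experiment cannot be told apart in it. In controls of experiment B it was higher in females, by 2.40-fold on day 8 and 2.14-fold on day 29, and neither difference was called (adjusted p = 0.0612 and 0.0835). Of 18 other genes of leptin signalling tested per table, Socs1 and Jak2 rose in experiment A (log2 2.00 and 0.67), Socs1 and Ptpn1 rose in females day 29 (log2 1.12 and 0.84), Stat3 fell in females day 8 (log2 -0.60), and none was called in the other 2 tables. Socs1 and Ptpn1 are inhibitors of the receptor's signal. The list's median log2 change lay between -0.175 and -0.012, and the median over all genes between -0.004 and 0.07.

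Gas6, the ligand, was chosen in females day 8. Controls there had 496.4, 360.2, 350.6, 294.3 and 406.5 CPM and rats at 1500 mkd had 284, 161.7, 128.3, 89.6 and 181.2 CPM, with no overlap and a change of 2.25-fold lower (log2 -1.17, SE 0.25). In females day 29, which did not choose Gas6, the controls had 247.9, 318.5, 320.3, 254.7 and 259.3 CPM and the rats at 1500 mkd 173.2, 96.9, 120.6, 167.5 and 161.9 CPM. Again the groups did not overlap, and Gas6 fell 1.95-fold (log2 -0.96, SE 0.22, adjusted p = 0.00361), with a slope of -0.68 per 1000 mkd (SE 0.14, adjusted p = 0.00047).

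In males Gas6 was not called at any dose. Its changes at the highest dose were log2 -0.11 (SE 0.17) in experiment A, -0.44 (SE 0.22) in males day 8 and -0.27 (SE 0.27) in males day 29. Male controls of experiment B were lower than female controls from the start, at 91.7 ± 47.1 against 280.1 ± 36.1 CPM on day 29, 3.06-fold (adjusted p = 6.48e-07). On day 29 the response of males was 0.65 log2 units higher than that of females (SE 0.36), which was not called (adjusted p = 0.333), so a difference of the response between the sexes was not shown. Of 6 genes of the Gas6 receptors, the related ligand Pros1 and the vitamin K enzymes, Axl rose and Vkorc1 fell in experiment A (log2 1.39 and -1.01) and in females day 29 (log2 0.88 and -0.94), Pros1 fell in experiment A (log2 -0.65), and none was called in the other 3 tables. Vkorc1 recycles vitamin K. The median of the list was between -0.26 and 0.02.

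Inmt was chosen in experiment A. Its controls there had 34.7, 118.3, 53, 38.1 and 24.4 CPM and the rats at 1000 mkd had 5.82, 0.133, 32.1, 0.681 and 0.865 CPM. Replicate 3 of the treated rats lay inside the control range and the other 4 lay below it, spanning a wide range among themselves, and the change was 6.76-fold lower (log2 -2.76, SE 0.93).

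In males of experiment B Inmt was not called at any dose. On day 8 controls had 7.29, 25.2, 8.62, 0.339 and 2.51 CPM and the rats at 1500 mkd 10.6, 5.03, 2.26, 2.99 and 13.7 CPM, log2 -0.37 (SE 0.77). On day 29 the controls had 20.3, 18.6, 25.5, 18 and 6.9 CPM and the treated rats 7.4, 15.4, 0.0272, 14.6 and 58.6 CPM, log2 0.14 (SE 0.76). The treated rats of day 29 lay on both sides of the controls, from 1 read in replicate 3 to 2215 reads in replicate 5. In females Inmt was near the limit of detection, with 0 to 11 reads per rat on day 8 and 0 to 43 on day 29. Controls of females day 29 were at 0.615 ± 0.524 CPM and rats at 1500 mkd at 0.103 ± 0.0467 CPM, log2 -2.51 (SE 0.96), not called (adjusted p = 0.0657), with a called slope of -1.53 (SE 0.57, adjusted p = 0.0434) that was lost without replicate 2, 3, 4 or 5 of every group (adjusted p from 0.0643 to 0.128).

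Inmt was the most male-biased member in controls. On day 8 males had 8.79 ± 9.77 CPM and females 0.223 ± 0.216 CPM. Females of day 8 had too few reads to be tested by themselves, so that these values are given without a test. On day 29 males had 17.9 ± 6.8 CPM and females 0.615 ± 0.524 CPM, 29.5-fold (log2 4.88, SE 0.84, adjusted p = 3.54e-06). Of 19 genes tested that make or use methyl donors, 7 fell and 0 rose in experiment A, among them Mat1a, which makes S-adenosylmethionine, and Gnmt (log2 -0.92 and -0.88). Gnmt and Mat1a also fell in females day 29 (log2 -0.71 and -0.67), in males day 29 Mtr fell (log2 -0.63), and none was called in the day 8 tables of experiment B. The median of the list was -0.58 in experiment A, -0.33 in females day 29 and between -0.19 and 0.01 in the others.

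The Inmt and Ky promoters are shown because in controls Inmt was the most male-biased member by its level and Ky the most female-biased. RefSeq promoters of build GRCr8 were found for 8 of the 10 genes (the entries for Alox15 and Nos1ap are missing), and the 250 bases before the annotated start are given 5′ to 3′ on the strand of the gene. Capitals mark matches on either strand. The TATA box was searched as TATAAA, found in 12.9% of 33469 promoters of this length, and the GC box as GGGCGG, found in 30.5%. The motif CCAAT was found in 34%, the E box, searched as CACGTG, in 5.59%, and the GAS element that STAT factors bind, searched as TTCNNNGAA, in 7.67%. No marked match overlaps another.
Inmt (chr4:85652756-85653005, minus strand): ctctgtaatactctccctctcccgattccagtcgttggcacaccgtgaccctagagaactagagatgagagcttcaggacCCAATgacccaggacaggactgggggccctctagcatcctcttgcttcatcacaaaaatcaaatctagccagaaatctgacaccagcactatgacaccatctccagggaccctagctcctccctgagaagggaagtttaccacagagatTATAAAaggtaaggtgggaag
Ky (chr8:111965612-111965861, plus strand): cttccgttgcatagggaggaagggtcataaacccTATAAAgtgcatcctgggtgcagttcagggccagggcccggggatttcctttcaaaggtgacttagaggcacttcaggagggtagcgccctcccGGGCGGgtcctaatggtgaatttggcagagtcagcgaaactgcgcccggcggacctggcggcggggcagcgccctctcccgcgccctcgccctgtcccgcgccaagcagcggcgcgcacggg
The Inmt window holds TATAAA from base 21 to base 16 before the start and CCAAT from base 170 to base 166, while the Ky window holds TATAAA farther away, from base 216 to base 211, and 1 GC box. GC content was 50.4% for Inmt and 65.2% for Ky, with a median of 51.2% over all promoters. Among the 8 genes, 2 had a TATA box, 4 a CCAAT box, 4 a GC box and 0 an E box or GAS element in this window.

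Ky was chosen in females day 29. Its controls had 6.93, 15.5, 43.5, 25.1 and 34.9 CPM and the rats at 1500 mkd had 3.02, 0, 1.02, 1.89 and 3.81 CPM, all below the lowest control. The change was 13.3-fold lower (log2 -3.73, SE 0.83).

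In females day 8 Ky had 19.1, 9.81, 16.2, 11.3 and 14.5 CPM in controls and 8.36, 1.43, 1.83, 0.749 and 2.82 CPM at 1500 mkd. All 5 treated rats lay below all controls, and the change was log2 -2.19 (SE 0.58), which missed the threshold (adjusted p = 0.0628). DESeq2 called it (log2 -2.23, adjusted p = 0.0163), and without replicate 1 of the treated rats edgeR did too (adjusted p = 0.00809). The slope was called at -1.32 per 1000 mkd (SE 0.33, adjusted p = 0.0187), and lost without replicate 2, 3, 4 or 5 of every group (adjusted p from 0.0696 to 0.101). In males Ky had at most 11 reads per rat in experiment A, 23 on day 8 and 45 on day 29 of experiment B. At 1000 mkd in experiment A and at 1500 mkd in males day 29 no rat had more than 1 read, which is under a floor of 3 reads, and no fold change was taken.

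Female controls of day 8 had 14.2 ± 3.74 CPM of Ky and male controls 0.16 ± 0.169 CPM, which is 0 to 9 reads per male. All 5 females lay above all 5 males, and no test is given because Ky had enough reads in females alone. On day 29 the values were 25.2 ± 14.6 and 0.417 ± 0.757 CPM, also without a test, since these female controls chose the gene. Markers of skeletal muscle summed to 0.511 to 1.86 CPM over the control and highest dose groups, with 2 of 6 tested and none called in any table. Of the filamins and transglutaminases, the proteins related to Ky by binding or by fold, Flna rose in experiment A and females day 29 (log2 0.97 and 0.74) among 6 tested, and none was called in the other tables, with list medians between -0.191 and 0.264.

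Alox15 was chosen in experiment A, at a low level. The controls had 1.34, 1.79, 3.31, 1.05 and 1.61 CPM and the rats at 1000 mkd had 0.596, 0.209, 0.221, 0.284 and 0.341 CPM, all below the lowest control and resting on 7 to 20 reads. The change was 5.40-fold lower (log2 -2.43, SE 0.54). Outside this table Alox15 was called neither lower nor higher.

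In males day 8 and males day 29 the changes were log2 0.70 (SE 0.49) and 0.20 (SE 0.58), in females day 8 log2 1.21 (SE 0.49) and in females day 29 log2 -0.65 (SE 0.63), and none was called. In females day 8 the value was the 1 higher change at an unadjusted p under 0.05, with controls of 0.0353, 0.264, 0.0782, 0.0882 and 0.249 CPM and treated rats of 0.208, 0.271, 0.549, 0.374 and 0.379 CPM, 4 of them above all controls (adjusted p = 0.229). These values rested on 1 to 9 reads per control rat and 7 to 12 reads per treated rat. The response of Alox15 on day 29 was 1.84 log2 units lower than on day 8 in females (SE 0.88), not called (adjusted p = 0.617). Male and female controls differed by log2 1.35 (SE 0.65) on day 8 and 0.67 (SE 0.55) on day 29, neither called.

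Erythroid markers were also lower in experiment A. Their summed level there was 183.8 to 279.3 CPM in controls and 18.2 to 95 CPM at 1000 mkd, with 2 of 3 tested markers lower, Hbb by log2 -2.30 and Alas2 by log2 -2.39, and with Hba1 at 0 in every group. Alas2 and Hbb were also lower in females day 29 (log2 -1.41 and -1.26), with summed levels of 55.1 to 210.3 CPM in controls and 21.4 to 78.3 CPM at 1500 mkd, and in the other 3 tables none was called. Where the Alox15 change was log2 1.21, in females day 8, the summed level was 27.4 to 80.6 CPM in controls (median 77.3) and 37.6 to 64.3 CPM at 1500 mkd (median 54). Among rats of the same group Alox15 followed the mean of Hbb and Alas2 with r = 0.679 over all rats and between 0.511 and 0.83 in the 5 tables, and its nearest gene of 11065 compared was Alas2 (r = 0.716), which makes heme in red cells, followed by LOC287167 (r = 0.68). These are descriptions, since the points share libraries and the genes were picked for likeness. The treated male of day 29 with the highest Alox15, replicate 2 with 2.3 CPM, had the highest erythroid sum of its group, 490.5 CPM. The part of red cell RNA in the fall of Alox15 was not tested. Of other lipoxygenase and prostanoid genes, 7 of 16 rose and 1 fell in experiment A, with Aloxe3 and Alox5 higher (log2 2.01 and 1.51) and Ltc4s lower (log2 -1.65). In females day 29, 3 of 15 rose, Aloxe3, Ptgs1 and Tbxas1 (log2 2.44, 0.92 and 0.85), and in the other 3 tables none was called. The median of the list was between 0.2 and 0.65, above that of all genes.

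**Figure D3:**
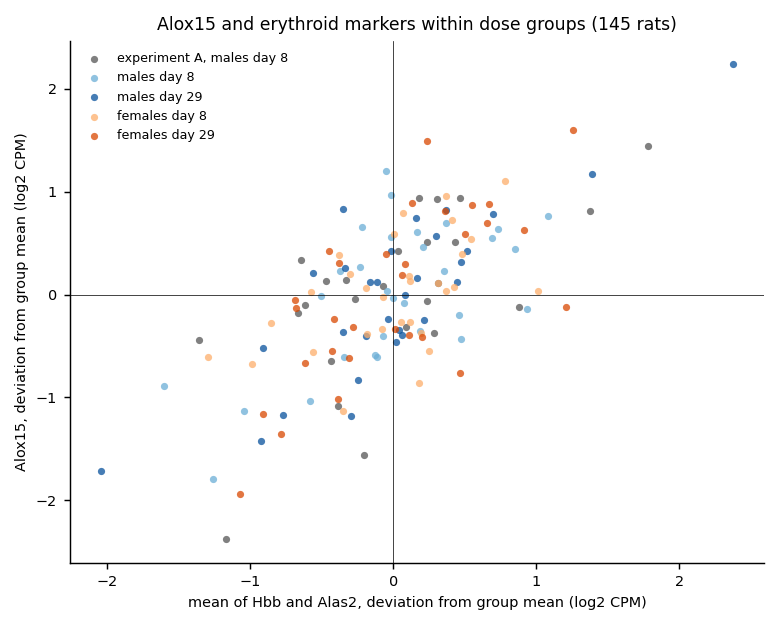
Deviation of Alox15 from its dose group mean (y axis, log2 CPM) against that of the mean of the erythroid markers Hbb and Alas2 (x axis, log2 CPM), 1 point per rat, coloured by table. The points rise together, with r = 0.679 over all rats.

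Rgs16 was chosen in females day 29. The controls had 141.4, 61.2, 181.9, 132.5 and 113 CPM and the rats at 1500 mkd 8.43, 6.53, 27.8, 2.28 and 44.3 CPM, with no overlap and a change of 7.07-fold lower (log2 -2.82, SE 0.89). From 500 mkd on the group medians of that table lay under the lowest control.

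In the other tables rats of the same group differed widely in Rgs16. In females day 8 the controls ranged from 7.27 to 151.4 CPM and the rats at 1500 mkd from 6.08 to 123.1 CPM, log2 -0.44 (SE 0.82). Changes at the highest dose were log2 -1.19 (SE 0.91) in experiment A, -1.70 (SE 0.89) in males day 8 and -1.72 (SE 1.20) in males day 29, none called, although each was larger in size than the called changes of Gas6 and Atp13a5. The slope in males day 29 was called at -2.46 (SE 0.86, adjusted p = 0.0353), and lost without replicate 1, 2, 4 or 5 of every group (adjusted p = 0.0623, 0.211, 0.0515 and 0.0675). Female controls of day 8 had 69.2 ± 61 CPM and males 6.76 ± 8.96 CPM, 10.2-fold (adjusted p = 0.0141), and the day 29 values, from the controls that chose the gene, were 126 ± 44.1 and 2.78 ± 2.17 CPM. Of other RGS genes, 4 of 12 rose and 1 fell in experiment A, among them Rgs1 and Rgs19 (log2 1.68 and 0.97) and Rgs7 (log2 -1.03), and 3 of 13 rose in females day 29, Rgs4, Rgs10 and Rgs19 (log2 1.40, 0.86 and 0.65). None was called in the other 3 tables, and the median of the list ranged from -0.05 to 0.65.

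Genes of the clock and of feeding were looked at beside Rgs16. The study describes an overnight fast before sampling. In experiment B it killed the rats in random order to limit the effect of the time of day. None of 15 clock genes was called in any table, with list medians between -0.305 and 0.022. Of 21 genes that answer to fasting or feeding, 7 fell and 0 rose in experiment A and 6 fell and 1 rose in females day 29, where Scd1, Fasn and Pklr, genes of fat synthesis and glycolysis, changed by log2 -3.22, -1.97 and -1.81, after -3.11, -1.58 and -1.35 in experiment A. The median of the list was -0.74 and -0.48 in these tables and between -0.38 and -0.18 in the other 3, where none was called.

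Dab1 was chosen in males day 29. The controls had 7.55, 8.76, 8.11, 5.67 and 8.88 CPM and the rats at 1500 mkd 2.69, 2.03, 0.462, 2.79 and 2.22 CPM, with no overlap and a change of 3.78-fold lower (log2 -1.92, SE 0.38). In the other 4 tables its change was between log2 -1.48 and -1.02.

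In experiment A Dab1 fell 2.80-fold (log2 -1.48, SE 0.30, adjusted p = 0.00115). The controls there had 3.68, 3.82, 2.13, 4.97 and 3.75 CPM and the rats at 1000 mkd 1.28, 0.912, 2.06, 1.33 and 0.891 CPM, again without overlap. In females day 29 it fell 2.02-fold (log2 -1.02, SE 0.35, adjusted p = 0.041), with controls of 6.06 to 11.5 CPM and treated rats of 1.34 to 6.11 CPM, 1 of them inside the control range. This call was lost without replicate 2 of the treated rats, which had the lowest level (log2 -0.78, adjusted p = 0.135), and likewise without control replicate 2, 4 or 5 or treated replicate 1, 3 or 4, with adjusted p from 0.0503 to 0.0845. Of 22 alternative settings, 12 lost this call. In males day 8 and females day 8 the changes were log2 -1.16 (SE 0.45) and -1.02 (SE 0.39), not called. Slopes were called in experiment A at -1.31 (SE 0.29, adjusted p = 0.000618) and in females day 29 at -0.69 (SE 0.20, adjusted p = 0.0113), the latter lost without replicate 2 or 4 of every group (adjusted p = 0.0879 and 0.055). Controls of day 8 had 5.38 ± 3.04 CPM in males and 11.3 ± 3.51 CPM in females, not called (adjusted p = 0.0707). Of 9 other reelin pathway genes, 3 rose in experiment A, Fyn, Src and the receptor Vldlr (log2 1.21, 1.09 and 1.07), 2 rose in females day 29, Vldlr and Src (log2 0.99 and 0.67), and none fell or was called elsewhere. The median of the list was between -0.02 and 0.51.

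Pcdh7 was also chosen in males day 29. The controls had 3.85, 3.44, 4.42, 4.38 and 3.66 CPM and the rats at 1500 mkd 0.91, 0.752, 1.03, 1.45 and 0.847 CPM, with narrow spread in both groups and a change of 3.87-fold lower (log2 -1.95, SE 0.41). In females day 8 it had 11.2, 7.11, 9.03, 10.2 and 8.36 CPM in controls and 6.07, 4.06, 2.65, 3.84 and 4.88 CPM at 1500 mkd, without overlap. That change, log2 -1.08 (SE 0.32), was not called (adjusted p = 0.0831), while DESeq2 called it (adjusted p = 0.0252), and the slope was called at -0.68 (SE 0.18, adjusted p = 0.0248) but not without replicate 2, 3, 4 or 5 of every group (adjusted p from 0.0661 to 0.107). In experiment A Pcdh7 was at 1.79 ± 0.753 CPM in controls and 1.55 ± 0.508 CPM at 1000 mkd, log2 -0.18 (SE 0.32). In males day 8 and females day 29 the changes were log2 -0.59 (SE 0.29) and -0.77 (SE 0.43), not called. Female controls of day 8 were higher than male controls, 9.16 ± 1.56 against 3.41 ± 1.29 CPM, 2.69-fold (adjusted p = 0.00382). Of other protocadherins 3 to 5 were tested per table, Pcdh12 rose in experiment A (log2 0.94), and none was called elsewhere, with list medians between -0.37 and 0.33.

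Nos1ap was chosen in females day 8. The controls had 5.29, 7.9, 4.81, 5.38 and 4.59 CPM and the rats at 1500 mkd 3.15, 3.08, 1.65, 2.71 and 1.73 CPM, with no overlap and a change of 2.24-fold lower (log2 -1.16, SE 0.25). These controls stood above those of the other 4 tables, which averaged 1.67 to 2.51 CPM. Outside this table the changes were log2 0.14 (SE 0.32) in experiment A, -0.39 (SE 0.28) in males day 8, -0.65 (SE 0.31) in males day 29 and -0.35 (SE 0.27) in females day 29, and none was called. In females day 29 the controls, at 1.89 ± 0.738 CPM, and the rats at 1500 mkd, at 1.5 ± 0.515 CPM, overlapped in 4 of 5 rats. The difference between male and female controls of day 29 was not called (log2 0.23, SE 0.28, adjusted p = 0.618). Of the nitric oxide synthases and other partners, Nos1 fell in females day 29 (log2 -1.32) among 7 tested, none was called in the other 4 tables, and the list medians were between -0.01 and 0.67.

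Atp13a5 was chosen in males day 8. The controls had 7.67, 4.8, 4.42, 6.83 and 7.87 CPM and the rats at 1500 mkd 2.88, 2.11, 2.91, 3.16 and 3.07 CPM, with no overlap and a change of 2.22-fold lower (log2 -1.15, SE 0.24). It was called lower in the other male tables and in neither female table.

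In males day 29 Atp13a5 fell 1.94-fold (log2 -0.96, SE 0.25, adjusted p = 0.0227), with controls of 5.43, 5.44, 6.2, 6.06 and 3.47 CPM and treated rats of 2.97, 3.76, 2.2, 2.56 and 1.98 CPM. One treated rat lay above the lowest control, which stood apart from the other controls, and the slope was called at -0.75 (SE 0.15, adjusted p = 0.00136). Without control replicate 2 the change was log2 -0.95 and was not called (adjusted p = 0.0521). The call in males day 29 was lost in 4 of 22 alternative settings, with an adjusted p of up to 0.0904. In experiment A Atp13a5 fell 1.81-fold (log2 -0.85, SE 0.27, adjusted p = 0.0197), from 6.55, 7.87, 4.66, 4.05 and 4.58 CPM to 3.7, 1.31, 4.08, 2.81 and 3.22 CPM, 4 of the treated rats lying below all controls. Without replicate 2 of the treated rats the change there was log2 -0.65 and was not called (adjusted p = 0.0593), nor was it without control replicate 2 (adjusted p = 0.0703). In all, the call in experiment A was lost in 5 of 22 alternative settings, with an adjusted p of up to 0.196. The slope in experiment A was -0.66 (SE 0.26, adjusted p = 0.0373), and was lost without replicate 2, 4 or 5 of every group (adjusted p = 0.281, 0.0636 and 0.0845) and with the rank of the dose in place of the dose (adjusted p = 0.0631).

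In females the changes of Atp13a5 were log2 0.10 (SE 0.36) on day 8 and 0.14 (SE 0.40) on day 29, not called. Female controls were lower than male controls, 0.797 ± 0.438 against 5.32 ± 1.09 CPM on day 29, 6.67-fold (adjusted p = 9.42e-11). The response of males on day 29 was 1.14 log2 units lower than that of females (SE 0.46), which was not called (adjusted p = 0.176), so a difference between the sexes was not shown. Of the 3 other P5-type ATPases tested, Atp13a2 rose in experiment A and females day 29 (log2 0.70 and 0.66), none was called in the other tables, and the list medians were between 0 and 0.38.

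In controls of experiment B, sex was compared in 13 tests that did not involve a choosing table, and in 11 of these the member had enough reads in both sexes. Of the 11 tests 5 were called, 1 in each of 5 members. In the other 2, Inmt and Ky on day 8, the gene had enough reads only in the sex where it was high, so it had to differ and is given by its levels. On day 8 Rgs16 and Pcdh7 were higher in females, where 8.00% of all genes differed between the sexes. On day 29 Inmt and Atp13a5 were higher in males and Gas6 in females, where 12.1% of all genes differed. Lepr, Dab1, Alox15 and Nos1ap were not called in any such test, and the call of Rgs16 was lost without replicate 2, 3 or 4 of every group (adjusted p from 0.0599 to 0.136).

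**Figure D4:**
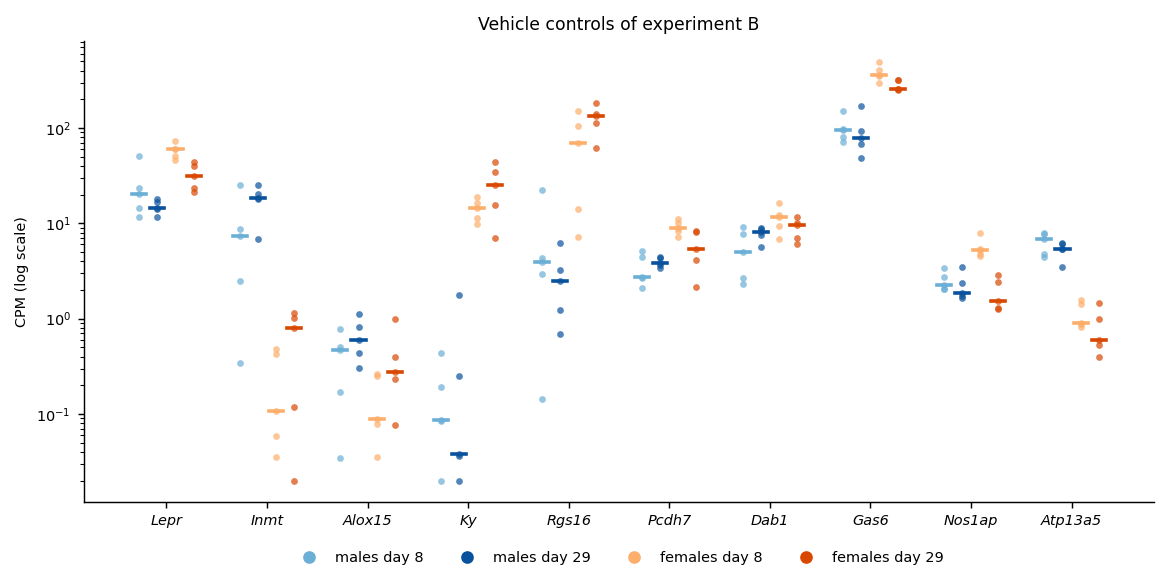
CPM on a log scale (y axis) of the 10 genes (x axis) in the vehicle controls of experiment B, 5 rats per group as points and the median as a bar, with values below 0.02 CPM drawn at 0.02. The groups of males and females are separate for Ky, Gas6 and Atp13a5 on both days. That separation is a description, since the points include the controls that chose each of these genes. Ky also had too few reads in males to be tested there. The share of all genes that separate in the same way is not given.

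No difference of the response to 1500 mkd between the sexes or durations was called for a member. Of 26 such differences outside the choosing tables, edgeR and DESeq2 each called 0, and 2 had an unadjusted p under 0.05 by edgeR, those of Atp13a5 and Alox15 given above, which is close to the 8.51% of all genes. Those of Ky, and those of Inmt that use females day 8, involve groups with too few reads to be tested by themselves. Their SE was 1.54 to 2.53, so they could not decide the question, and Ky had no other comparison. Among all genes 0% and 0.466% were called for males against females on day 8 and day 29, and 0% and 0.0169% for day 29 against day 8 in males and females.

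Among rats of the same dose the members were compared with each other. For each of the 45 pairs, the deviations from the group mean (log2 CPM, all rats of the 29 groups) were correlated and tested by permuting rats within groups, in both directions, with p adjusted over the 45 pairs. The correlation was positive in 37 pairs, with a median of 0.12, and was called in 14, of which 12 were positive and 2 negative, and 11 of the 14 had the same sign in all 5 tables. The smallest called r had a size of 0.225, and 28.9% of the member pairs reached it as a positive and 4.44% as a negative value. Over all pairs of the 11066 genes tested in every table, 8 of the members among them, it was 17.6% and 17.4%, with 49.1% of pairs positive against 82.2% of the member pairs. The sets differ, since the member shares are over all 45 pairs and 28 of these lie among the 11066 genes. Inmt and Ky are not among those genes, and both negative called pairs hold Inmt. Alox15 and Atp13a5 were in no called pair, while Lepr was in 5 positive pairs and Pcdh7, Dab1 and Gas6 in 4 each. Each Lepr pair lost its call in some of 16 alternative settings, from 3 for Inmt and Gas6 to 7 for Ky. The pair of Dab1 and Gas6 lost it in 10, and Pcdh7 with Dab1 and with Nos1ap kept it in all 16.

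Pcdh7 and Dab1 were the closest pair, with r = 0.49 (permutation adjusted p = 3e-04, from the smallest p that 100000 permutations can give, 1e-05) and rho = 0.484 (adjusted p = 0.00015). Within tables r ranged from 0.249 in experiment A to 0.654 in females day 8, it was 0.459 without the 2 rats farthest in Pcdh7, and it was 0.475 without males day 29, the table that chose both. Nos1ap went with both, with r = 0.375 to Pcdh7 (0.287 to 0.526 within tables, rho = 0.408) and r = 0.335 to Dab1 (0.0848 to 0.769, rho = 0.342), permutation adjusted p = 3e-04 and 0.00369. Ky and Gas6 had r = 0.42 (permutation adjusted p = 3e-04, rho = 0.415), resting on the females, where r was 0.679 on day 8 and 0.682 on day 29. Outside these tables, which chose the pair, it was 0.202, in males, where Ky was barely detected, and was not called (permutation adjusted p = 0.288). Lepr and Inmt had r = 0.35 (permutation adjusted p = 0.00369, rho = 0.34), with a range from 0.0697 in females day 29 to 0.679 in males day 29, and Lepr and Gas6 had r = 0.326 (permutation adjusted p = 0.00821, rho = 0.244). Both were lost without males day 29, at r = 0.218 and 0.258 (permutation adjusted p = 0.0802 and 0.0782), and without the highest dose of each table, at r = 0.164 and 0.18 (permutation adjusted p = 0.208 and 0.169). At 1500 mkd in males day 29, replicate 3 was the lowest of its group for Lepr, Inmt and Gas6. The correlations of these pairs were not computed with that rat alone left out, so its part in them is not known. The negative pairs were Inmt with Nos1ap, r = -0.269 (permutation adjusted p = 0.0087, rho = -0.238), and Inmt with Pcdh7, r = -0.24 (permutation adjusted p = 0.0224, rho = -0.197, permutation adjusted p = 0.0946).

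**Figure D5:**
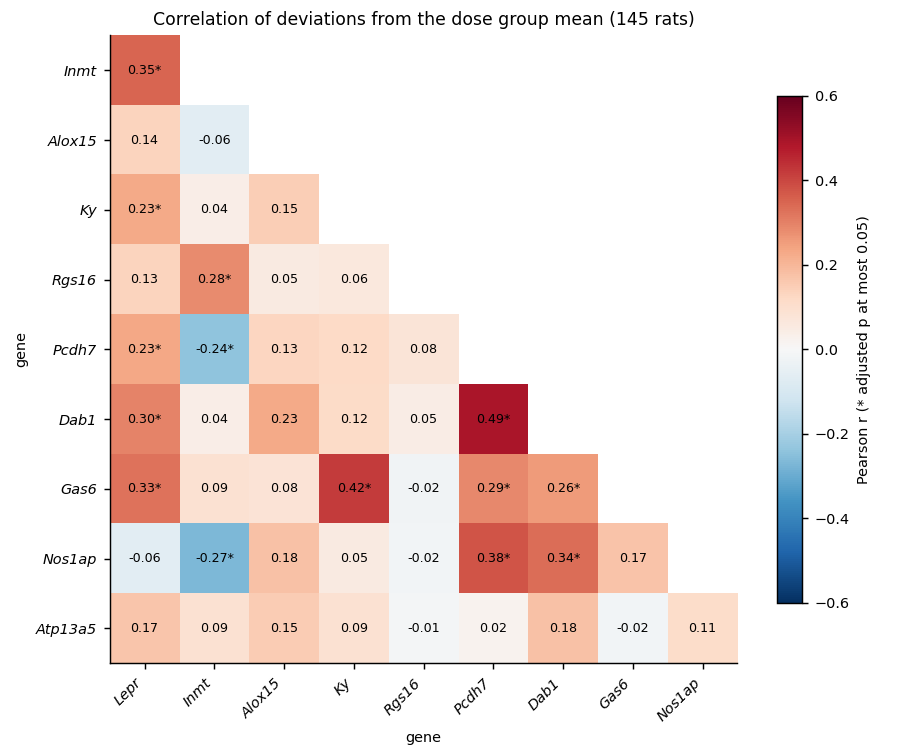
Pearson correlation of the deviations from the dose group mean (log2 CPM, all rats) for each pair of the 10 genes, coloured from blue for negative to red for positive, with an asterisk at an adjusted p of at most 0.05. The pair of Pcdh7 and Dab1 stands highest at 0.49, and the 2 negative called pairs both hold Inmt.

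The promoters of Pcdh7 and Dab1 (the first of 2 windows of Dab1) are shown because these genes varied together most. The marks are those used for Inmt and Ky.
Pcdh7 (chr14:57113523-57113772, minus strand): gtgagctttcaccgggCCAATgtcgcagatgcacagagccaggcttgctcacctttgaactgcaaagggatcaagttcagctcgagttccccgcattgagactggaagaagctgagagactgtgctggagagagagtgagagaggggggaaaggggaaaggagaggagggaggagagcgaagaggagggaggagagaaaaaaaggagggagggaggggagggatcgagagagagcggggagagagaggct
Dab1 (chr5:124369254-124369503, plus strand): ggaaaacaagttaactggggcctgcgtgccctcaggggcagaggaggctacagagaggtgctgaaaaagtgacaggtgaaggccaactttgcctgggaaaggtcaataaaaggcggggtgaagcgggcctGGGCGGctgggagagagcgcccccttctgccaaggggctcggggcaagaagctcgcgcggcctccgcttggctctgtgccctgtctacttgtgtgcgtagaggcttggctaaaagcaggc
Of the motifs searched, the Pcdh7 window holds 1 CCAAT box, from base 234 to base 230 before the start, and the Dab1 window 1 GC box, from base 120 to base 115, so these windows share none. GC content was 57.2% and 61.2%.

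At the highest dose single rats stood out for many members at once. In females day 8 replicate 1 of the treated rats was the highest of its group for 6 members, Lepr, Ky, Rgs16, Pcdh7, Gas6 and Nos1ap, and without it 9 calls in place of 6 were made at the highest dose, adding Lepr, Ky and Pcdh7 in that table. The 12 proliferation genes of that rat summed to 44.02 CPM, against 44.46 to 152.2 CPM in the other 4 rats of its group. In males day 8 replicate 5 was the highest for 7 members and replicate 2 the lowest for 5. Their proliferation sums were 219.8 and 69.86 CPM, the highest and the lowest of that group. In males day 29 replicate 3 was the lowest for 5 members, Lepr, Inmt, Alox15, Dab1 and Gas6, and its 12 proliferation genes summed to 1336 CPM, against 25.7 to 86.3 CPM in the other 4 rats of its group and 19.3 to 49.9 CPM in the controls. By its label this animal is the male that the study calls an outlier in its staining of dividing liver cells. The study left that animal out of its dose modelling of the staining. Among treated females of day 29 replicate 2 was the lowest for 6 members and replicate 5 the highest for 5, with proliferation sums of 133.3 and 46.1 CPM. The part of proliferation in the level of the members was not tested.

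The genes most like each member, by the correlation of deviations over all rats among at least 11065 genes, are named as a description with no test. Lepr was closest to Ahcyl1 (r = 0.652) and Pdha1 (0.642), Inmt to Gcdh (0.713) and RGD1564804 (0.671), and Nos1ap to LOC100361087 (0.743) and Fbxw11 (0.638). Dab1 was closest to Abhd2 (0.671) and Bsdc1 (0.662), Pcdh7 to Elovl5 (0.61), which elongates fatty acids, and Ifngr2 (0.586), and Gas6 to Itih4 (0.602) and Fam213b (0.581). Likeness was lower for Atp13a5, closest to Isoc1 (0.505) and Aadat (0.5), for Ky, closest to Lims2 (0.455) and Hgfac (0.45), and for Rgs16, closest to Slc25a47 (0.422) and Apoa4 (0.368). Inmt followed the mean of the methyl donor list with r = 0.584, between 0.303 and 0.725 in the 5 tables, and the mean of the proliferation list with r = -0.459, between -0.804 and 0.0556. The hepatocyte markers were followed by Inmt with r = 0.44, Atp13a5 with 0.429, Dab1 with 0.397 and Lepr with 0.342. Lepr went against the macrophage markers with r = -0.389, between -0.586 and -0.265. So did Gas6 (r = -0.334), Dab1 (-0.308), Nos1ap (-0.292) and Pcdh7 (-0.288), and the remaining members lay between -0.237 and 0.014.

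Markers of other cell types moved in the same tables. At the highest dose 20 of 62 markers tested were higher and 9 lower in experiment A, 16 of 60 higher and 4 lower in females day 29, 1 of 58 higher and 1 lower in males day 29, and 0 in both day 8 tables of experiment B. In experiment A 7 of 11 macrophage markers were higher, with summed levels of 645.8 to 1790 CPM in controls and 1478 to 2637 CPM at 1000 mkd, and 4 of 10 hepatocyte markers were lower, with sums of 291600 to 384600 and 93510 to 283700 CPM. Among females day 29, 4 of 11 macrophage and 5 of 11 stellate markers were higher, and of 10 hepatocyte markers 2 were lower and 1 higher. All 12 proliferation genes rose in experiment A, males day 29 and females day 29, with medians of log2 1.90, 3.50 and 2.71, and 1 rose in males day 8 and 2 in females day 8. Without treated replicate 3 of males day 29, a setting chosen after seeing the data, 6 of the 12 genes were called and the median was log2 0.946. Of 14 interferon response genes 14 rose in experiment A, 9 in females day 29, 3 in females day 8, 1 in males day 29 and 0 in males day 8. The part of these shifts in the fall of the members was not tested.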

How the data were processed

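Liver RNA of the rats was sequenced by the authors from TruSeq stranded mRNA libraries. Reads were trimmed with Trimmomatic, aligned to Rn6 with Bowtie2 and counted with HTSeq, and the raw counts per gene were deposited by the authors in 5 tables; tool versions and the strand setting are not given in the sources used here. Lines of HTSeq's own summary, which held 35.5 to 67.1% of the column totals in experiment B, were left out. Each table was fitted with edgeR 4.0.16 in R 4.3.3 (TMM, filterByExpr, quasi-likelihood test, Benjamini-Hochberg over all genes), with no covariate; sex and duration were compared in 1 fit of experiment B. DESeq2 1.42.0 was an alternative, with other scaling, filters, a replicate block and rats left out. Correlations used log2 CPM with a prior count of 2 and 100000 permutations. Fits were tested on simulated data. The members and gene lists were chosen with earlier results of these data known. Named were the 10 members, the 2 genes most like each, and at most 3 called genes per list and table, of which 1 is not reported here. Counts per rat limit precision for Inmt and Ky in the sex where they were low, and for Alox15. The p-values measure the spread between rats of a group.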

Additional observations from a re-analysis of the deposited data

Results flagged for a closer look

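The 10 genes were each looked at in the 5 control and 5 highest dose groups of 5 rats, 100 combinations of gene and group. In 7 of them 1 rat stood far from the other 4 by Dixon's criterion, applied to log2 CPM, while the values below are in CPM. Chance alone meets it in about 1 in 20, and the combinations share rats. In males day 29 controls, replicate 5 had 6.9 CPM of Inmt, against 17.98 to 25.48 CPM in the others, and 3.47 CPM of Atp13a5, against 5.431 to 6.196 CPM. In males day 29 at 1500 mkd, replicate 3 had 0.462 CPM of Dab1, against 2.034 to 2.794 CPM, and in females day 29 at 1500 mkd replicate 2 had 1.34 CPM of Dab1, against 4.619 to 6.113 CPM. In males day 8 at 1500 mkd, replicate 2 had 2.11 CPM of Atp13a5, against 2.885 to 3.157 CPM. In experiment A at 1000 mkd, replicate 5 had 0.314 CPM of Rgs16, against 0.984 to 1.446 CPM, and replicate 1 had 0.0298 CPM of Ky, which is 1 read, against 0 in the others. In no member did every rat of a group move one way in one sex or duration and the opposite way in another.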

How the results depend on the processing

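The 6 calls at the highest dose became 4 to 9 under the other scaling, filters, tests and fits, and 3 to 9 with rats left out, the 3 without replicate 4 of every group. The calls of Lepr and Gas6 in females day 29 and of Dab1 in experiment A held under all alternatives run. The 11 slopes became 8 to 13, and 4 to 10 without 1 replicate number (4 without replicate 2, 7 without 3, 5 without 4 and 6 without 5). Differences of the response stayed at 0. The 7 sex differences, among them those of Inmt and Ky on day 8, became 2 with at least 10 counts in every rat, which fewer genes pass, and otherwise 6 to 8. The 14 correlated pairs became 9 without males day 8, 9 without the tables that chose either gene, and 9 to 12 without 1 replicate number. The cause was not tested. With the replicate number as a block the counts were 6 calls, 8 slopes, 0 differences, 7 sex differences and 15 pairs. The slopes of Lepr (adjusted p = 0.0582) and Rgs16 (0.0866) in males day 29 and of Atp13a5 in experiment A (0.0512) were not called under the block. Under the block the change at the highest dose turned to log2 -0.18 for Inmt and -0.0459 for Alox15 in males day 29 and to 0.0439 for Rgs16 in females day 8, none called. Rats of the same number had mean correlations of -0.017 to 0.0436 per table, against -0.0107 to 0.00503 for rats of different numbers. Single correlations between rats of the same number ran from -0.569 to 0.519. A pairing by number was therefore neither shown nor excluded. With rats left out, 12 changes at the highest dose that were not called passed through 0, and none was called in either direction. Their log2 ranges in experiment A were -0.391 to 0.207 for Pcdh7, -0.346 to 0.0235 for Gas6 and -0.188 to 0.381 for Nos1ap. In males they were -1.02 to 0.64 for Inmt on day 8, and on day 29 -1.12 to 0.571 for Inmt, -0.774 to 0.685 for Alox15 and -0.505 to 0.0306 for Gas6. In females they were -1.36 to 0.337 for Rgs16 and -0.157 to 0.369 for Atp13a5 on day 8, and on day 29 -0.973 to 0.0789 for Alox15, -0.498 to 0.0386 for Nos1ap and -0.144 to 0.466 for Atp13a5.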
